A study of Homo sapiens with 2 samples.

Results

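The FOS, JUN and EGR1 immediate early genes were examined across 10 genes: FOS, FOSB, FOSL1, FOSL2, JUN, JUNB, JUND, EGR1, IER2 and IER3. Every probe set paired with 1 of these genes alone was taken, which gave 22 of the 54675 probe sets on each array, for 10 of the 19775 genes with a probe set of their own, and 0 further probe sets were shared between one of these genes and another gene. Total RNA was measured in cultures of HCT116, an established human colorectal cancer cell line, on 3′ expression arrays. The array labelled HCT116-CPEB4 comes from cells in which CPEB4 was over-expressed through a lentiviral system, and the array labelled HCT116-GFP comes from cells that the labels call wild type. Both lines were kept in the same serum-containing medium at the same temperature, and no growth factor stimulation is described. Whether the HCT116-GFP cells received a vector of their own, and whether either line is a clone or a pool, is not stated in the labels. Each group has 1 array, so no difference below has a replicate check or a p-value, and precision is limited by the number of arrays.

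Immediate early genes are switched on within minutes of growth factor, serum or stress signals, without new protein synthesis, and most of their mRNAs are short-lived. ERK and other MAP kinases act on factors bound at their promoters, among them SRF with its ELK partners at CArG boxes and CREB at cAMP response elements. The FOS and JUN proteins pair through leucine zippers to form AP-1, and EGR1 binds GC-rich sites through zinc fingers.

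The promoters of EGR1, FOS and JUNB are shown because EGR1 and FOS had the lowest gene values of the 10 members and JUNB the highest, a choice made after the values were seen. RefSeq sequences (GRCh38.p14) matched 8 of the 10 members; FOSL1 and IER3 are named only. Each sequence is the 250 bases upstream of the transcription start, 5′ to 3′ on the strand of the gene: EGR1 at chr5:138465229-138465478 (plus strand), FOS at chr14:75278578-75278827 (plus strand) and JUNB at chr19:12791236-12791485 (plus strand). Capitals mark matches, on either strand, to the CArG box, the cAMP response element core TGACGT, the EGR element GCGNGGGCG, the GC box GGGCGG, the CCAAT box CCAAT and the TATA box TATAAA. The AP-1 element TGANTCA and the full cAMP response element TGACGTCA were searched as well, and the full element contains the core.

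EGR1: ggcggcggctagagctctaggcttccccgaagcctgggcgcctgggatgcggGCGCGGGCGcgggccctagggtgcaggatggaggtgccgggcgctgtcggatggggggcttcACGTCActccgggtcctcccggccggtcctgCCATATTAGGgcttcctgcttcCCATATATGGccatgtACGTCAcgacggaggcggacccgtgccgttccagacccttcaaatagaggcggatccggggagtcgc

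FOS: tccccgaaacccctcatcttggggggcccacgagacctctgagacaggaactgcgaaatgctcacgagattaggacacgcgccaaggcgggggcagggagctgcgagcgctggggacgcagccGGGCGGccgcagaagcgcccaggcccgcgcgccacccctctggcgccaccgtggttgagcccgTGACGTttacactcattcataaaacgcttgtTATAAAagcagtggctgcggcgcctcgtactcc

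JUNB: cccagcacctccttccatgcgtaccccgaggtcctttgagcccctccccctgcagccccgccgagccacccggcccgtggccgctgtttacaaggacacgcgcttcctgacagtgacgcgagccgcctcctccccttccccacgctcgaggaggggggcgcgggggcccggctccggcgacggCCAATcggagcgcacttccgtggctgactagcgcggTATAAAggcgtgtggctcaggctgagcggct

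The EGR1 window held 2 CArG boxes, 2 cAMP response element cores and 1 EGR element. A CArG box was present in 1 of the 8 member windows, that of EGR1, and in 1.16% of 35116 promoter windows of the same length. The cAMP response element core was found in 5 of the 8, namely FOS, FOSB, FOSL2, JUND and EGR1, against 7.1% of all windows, and the full element in 1, JUND, against 1.65%. The FOS window held 1 core, 1 GC box and 1 TATA box, and the JUNB window 1 CCAAT box and 1 TATA box. GC boxes were found in 6 of the 8 members and 42.6% of all windows, CCAAT boxes in 3 and 32%, TATA boxes in 3 and 10.7%, and EGR elements in 1 and 8.41%. Exact matches to the AP-1 element TGANTCA were found in 0 of the 8 and 6.57% of all windows. Longer AP-1 spellings were not searched, and the JUN window holds the letters TGACATCA, which this pattern does not match. A match describes letters in this window and not a bound site. Bases farther upstream and variant spellings were not searched. A member without a match here may therefore carry such a site elsewhere or in other letters.

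**Figure D1:**
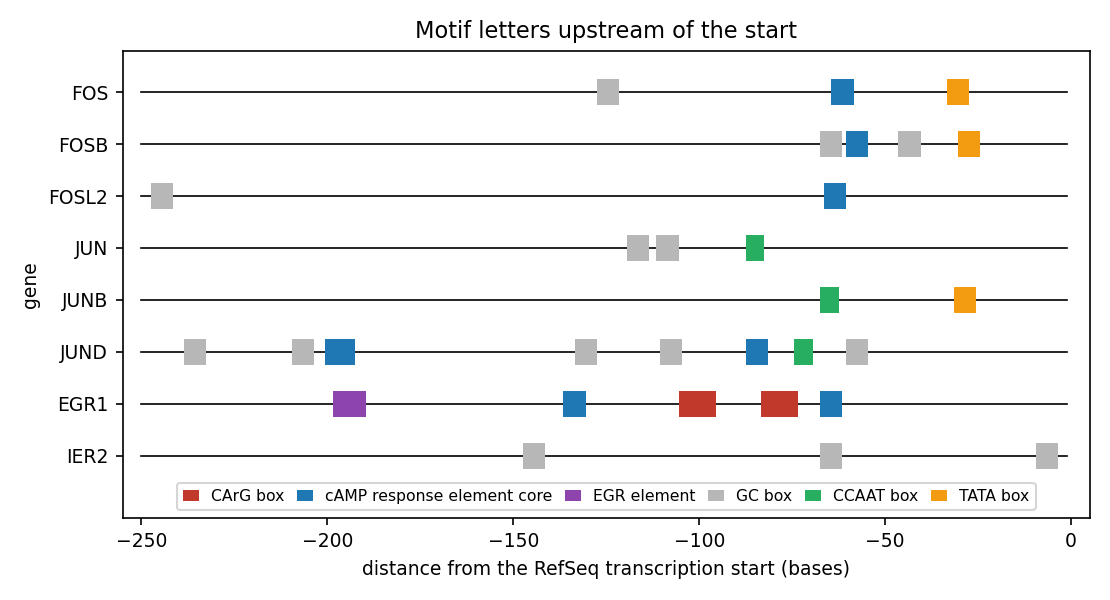
Motif matches in the 250 bases upstream of the RefSeq transcription start of the 8 members with a promoter sequence. Each row is a gene, the x axis is the distance from the start in bases, and each block is a match on either strand, drawn to scale. EGR1 is the 1 gene with CArG boxes in this window, and it has 2. Bases farther upstream were not searched.

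CPEB4, which the labels say was over-expressed, did not read higher on the array carrying its name. Its brightest probe set read 628 on the array labelled HCT116-CPEB4 and 731 on the array labelled HCT116-GFP, and its other probe sets read 558 and 758, 174 and 183, and 21.0 and 60.1, in the same order of arrays. A probe set outside the introduced sequence would check nothing, and the positions of the probe sets are not known here. All directions below therefore rest on the labels. The arrays had near-equal medians (61.1 and 60.6 intensity units) and trimmed means (500.1 each), and the ACTB control probe sets, which show how far labelling reached from the 3′ end, gave a 3′ to 5′ ratio of 10.3 on the array labelled HCT116-CPEB4 and 8.23 on the array labelled HCT116-GFP, with 1.04 and 0.989 for GAPDH. The part of this difference in the results below was not tested. Differences are log2 values of the array labelled HCT116-CPEB4 minus the array labelled HCT116-GFP. Of the other CPEB genes, CPEB2 differed by −0.56 and CPEB3 by −0.43 (its probe sets ran from −1.76 to 0.78), CPEB1 was dim, and the median of the 3 kept family members was −0.43. A probe set was called dim, and kept out of counts over genes, when neither array reached 60.82 intensity units, the 50th percentile of all values.

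EGR1 and FOS were lower on the array labelled HCT116-CPEB4, IER2, JUND and IER3 were lower by smaller amounts, JUN, FOSL1 and FOSL2 lay near 0, and JUNB was higher. With 1 value a gene from its brightest kept probe set, 7 of 9 members lay below 0, against 49.9% of the 13704 genes kept, and their median was −0.27, against 0.00 over all genes. None passed 2-fold in either direction, a size reached downwards by 3.85% and upwards by 3.55% of all genes. FOSB, whose single probe set was dim, is the member without a gene value. Over the 22 probe sets 14 lay below 0 and 8 above, where 50.2% of all named probe sets lay below 0. Higher by 2-fold or more were 2 of the 22, both faint and described below, where 11.2% of all named probe sets were, and 0 were lower by that much, where 11.8% were. Of the 18 kept probe sets 13 lay below 0, against 49.6% of all kept probe sets, and 1 was higher by 2-fold or more and 0 lower, against 4.6% and 4.48%. Between bulk cultures, fewer cells expressing a gene and less RNA per cell cannot be told apart.

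EGR1 encodes a zinc finger transcription factor that is among the fastest to respond to ERK signalling. Its brightest probe set (201694_s_at) read 3254 on the array labelled HCT116-CPEB4 and 5369 on the array labelled HCT116-GFP, a ratio of 0.606 and a log2 difference of −0.72. The second (227404_s_at) read 1099 and 1901 (−0.79) and the third (201693_s_at) 625 and 826 (−0.40) on the same arrays. All 3 were thus lower on the array labelled HCT116-CPEB4. Among the 1733 genes with 3 kept probe sets, 18.8% had all 3 below 0. All 3 lay at or below the highest EGR1 value in 0.923%, or 16 genes. EGR1 is 1 of these by construction, because its own value set the limit. The genes were not matched for brightness, so this share gives a position and no test.

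The members of the FOS family supply one partner of the AP-1 dimer, and they differed from each other. FOS, the founding member and the one most transient after stimulation, read 237 on the array labelled HCT116-CPEB4 and 366 on the array labelled HCT116-GFP at its single probe set (209189_at), a ratio of 0.647 and a difference of −0.63. FOSL1, also called Fra-1, read 945 and 1021 (−0.11) on the same arrays. FOSB read 19.5 and 19.2, both far under the dim filter, so neither its level nor its difference was measurable. FOS was thus lower on the array labelled HCT116-CPEB4, while FOSL1 lay close to 0.

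FOSL2, also called Fra-2, had 5 probe sets, all above 0. The bright pair read 732 on the array labelled HCT116-CPEB4 and 696 on the array labelled HCT116-GFP (228188_at, 0.07), and 638 and 588 (225262_at, 0.12). The third read 149 and 109 (0.45). The dim pair read 55.9 and 28.6 (0.97), and 35.2 and 10.6 (1.73). The difference of FOSL2 was therefore larger the dimmer the probe set. Among dim probe sets 21.5% of all named ones were higher by 2-fold or more and 23.2% were lower, so 44.7% of all dim probe sets passed 2-fold one way or the other.

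The JUN family supplies the obligate partner of the FOS proteins and also dimerises with itself. JUN, its best-known activator, read 1750.0 on the array labelled HCT116-CPEB4 and 1849 on the array labelled HCT116-GFP at its brightest probe set (201464_x_at, −0.08). The next ones read 470.3 and 479 (−0.03), and 204 and 216 (−0.08). The dimmest (213281_at) read 80.5 and 124 (−0.62), and it is the 1 JUN probe set whose identifier does not carry the manufacturer's mark for probes that may read related transcripts. JUN was near 0 on 3 of its 4 probe sets, and its direction was the same on all 4.

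JUNB, which can oppose JUN at AP-1 sites, read 679 on the array labelled HCT116-CPEB4 and 508 on the array labelled HCT116-GFP at its single probe set (201473_at), a ratio of 1.34 and a difference of 0.42. JUND, the family member with the steadiest expression in resting cells, read 5213 and 6546 at its brightest probe set (203752_s_at, −0.33). Its other probe sets were near the dim filter and read 58.9 and 80.3 (−0.45), 43.1 and 49.1 (−0.19), and 66.3 and 30.6 (1.12). The last passed the filter only through the array labelled HCT116-CPEB4, and the mean of the 3 kept JUND probe sets was 0.11. The direction of JUND therefore rests on its bright probe set, and JUNB was the member farthest above 0 in the gene values.

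IER2, a nuclear protein induced with FOS and EGR1, read 6886 on the array labelled HCT116-CPEB4 and 8836 on the array labelled HCT116-GFP (202081_at, −0.36). IER3, a stress-induced protein that modulates cell death and ERK and NF-kB signalling, read 19669 and 23647 (201631_s_at, −0.27). Each of these genes has 1 probe set, and both were lower on the array labelled HCT116-CPEB4 with ratios of 0.779 and 0.832.

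**Figure D2:**
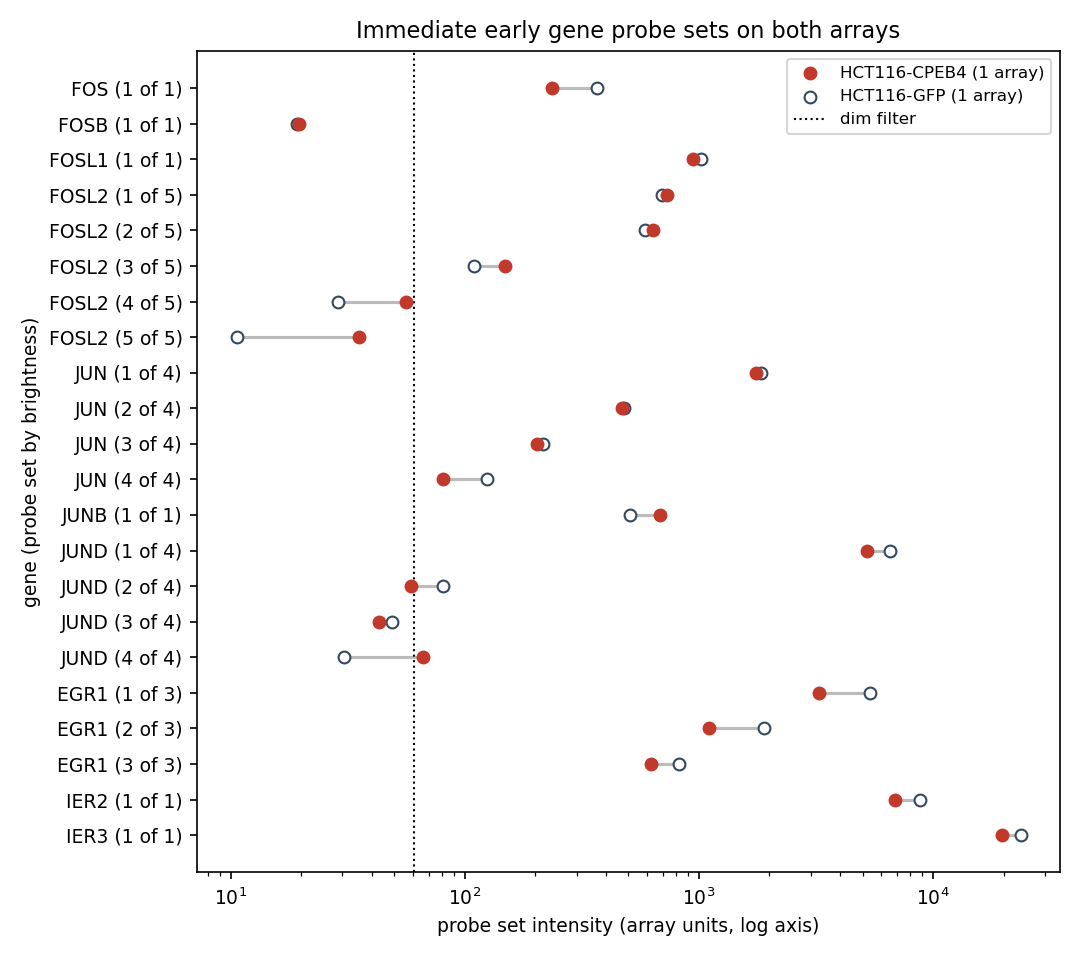
Intensity of each of the 22 probe sets on the array labelled HCT116-CPEB4 (filled) and the array labelled HCT116-GFP (open), on a log axis, with the probe sets of a gene ordered by brightness and the dim filter at 60.82 as a dotted line. All 3 EGR1 probe sets and the FOS probe set have the filled point to the left, and JUNB has it to the right.

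The spread between these arrays depends on brightness, so each kept probe set was also placed among the 2501 kept probe sets of like brightness, in 10 classes. EGR1 stood at percentiles 0.20, 0.32 and 7.0 of the differences in its classes, from the brightest probe set to the third. FOS stood at percentile 3.84, IER2 at 4.6, the bright JUND probe set at 6.08 and IER3 at 10.6. These members thus lay toward the low end of their classes. JUNB stood at 90.8, the bright FOSL2 pair at 57.5 and 63.3, and the JUN probe sets between 12.2 and 44.5. Below the 5th percentile of their class lay 4 of the 18 kept member probe sets, a position that 5.0% of all probe sets hold by construction, and above the 95th percentile lay 0. These probe sets include repeat measures of EGR1. Counted by gene, 3 of 9 members (EGR1, FOS and IER2) lay below the 5th percentile, against 5.32% of all genes. Above the 95th lay 0, against 4.89%. In the brightest class the 5th and 95th percentiles were −0.35 and 0.33, and in the class of FOS they were −0.58 and 0.66.

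**Figure D3:**
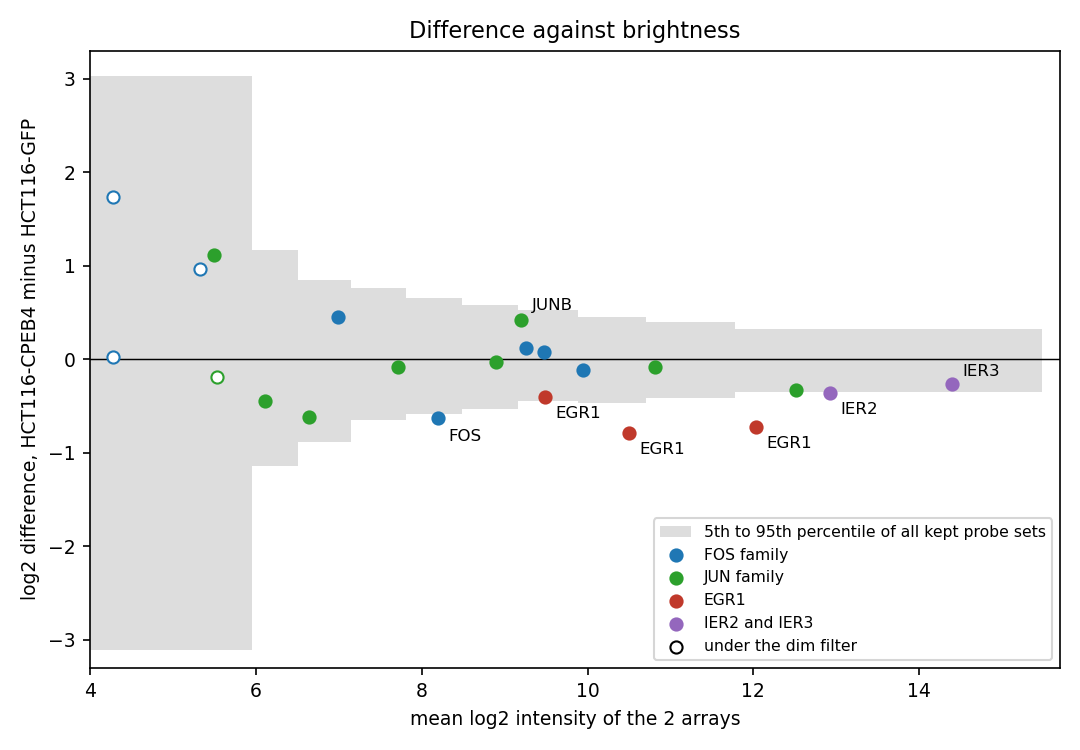
Log2 difference of each member probe set (y axis, array labelled HCT116-CPEB4 minus array labelled HCT116-GFP) against its mean log2 intensity (x axis), over the grey span from the 5th to the 95th percentile of all kept probe sets in 10 brightness classes. Of the EGR1 points 2 of 3 lie below the span, as do FOS and IER2, and the open points are dim.

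Probe sets of 1 gene on the same arrays are the repeat measure at hand, although they say nothing of the variation between cultures. Over 6520 genes the 2 brightest kept probe sets differed by a median of 0.27 on the log2 scale, and their signs matched in 58.9% of genes. The gap was 0.07 for EGR1, 0.05 for JUN, 0.04 for FOSL2 and 0.12 for JUND. The faintest kept probe set of each of these genes lay farther off. Over all kept probe sets EGR1 ran from −0.79 to −0.40 and JUN from −0.62 to −0.03. FOSL2 ran from 0.07 to 0.45 and JUND from −0.45 to 1.12. The 90th percentile of the gap was 1.01, which exceeds every gene difference of the members. Where the second probe set was itself at or above the 75th percentile of all values, in 2828 genes, the median gap was 0.18 and the 90th percentile 0.49. The differences of EGR1 and FOS exceeded the second of these, those of IER2, JUND, JUNB and IER3 lay between the pair, and those of JUN, FOSL1 and FOSL2 were smaller than both, although FOS is dimmer than the probe sets behind them.

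Other immediate early genes went both ways. Of 36 kept genes of the 38 listed, 20 lay below 0 and 16 above, where 49.9% of all genes lay below 0. The median was −0.15 (between −0.23 and −0.10 over the alternatives). The lowest were IER5L, a relative of IER2, at 1439 on the array labelled HCT116-CPEB4 and 2516 on the array labelled HCT116-GFP (−0.81, and −0.05 from its second probe set), and the cytokine LIF at 771 and 1175 (−0.61). Higher by 2-fold or more were 2 of the 36, where 3.55% of all genes were: the orphan nuclear receptor NR4A3 at 87.8 and 17.9 (2.29) and EGR4, a relative of EGR1, at 69.0 and 32.3 (1.09). Both passed the dim filter only through the array labelled HCT116-CPEB4. EGR3, a further relative of EGR1, read 228 and 304 (−0.41).

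Below the 5th percentile of their brightness class lay 6 of these 36 genes, against 5.32% of all genes, and above the 95th lay 1, against 4.89%. Named here for that position, after their values were seen, they were IER5L, LIF, KLF2 (−0.45), ERRFI1, a feedback inhibitor of the EGF receptor (−0.39), GEM (−0.53) and ZFP36L1 (−0.36, and 0.19 from its second probe set) on the low side, and DUSP2, a MAP kinase phosphatase, at 356 and 210.01 on the high side (0.76).

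Among the factors that act at immediate early promoters 8 of 11 kept genes lay below 0, against 49.9% of all genes. The list median was −0.08, or −0.34 when the kept probe sets of each gene were averaged. SRF itself, with 1 probe set, read 293 on the array labelled HCT116-CPEB4 and 456 on the array labelled HCT116-GFP (−0.64). Its partner ELK1 read 698 and 1211 (−0.80, and −0.13 from the second probe set). A further SRF partner, ELK3, read 7042 and 9013 (−0.36, and −0.73 from the second probe set). These genes were the 3 of the 11 below the 5th percentile of their brightness class, where 5.32% of all genes lay. Above the 95th lay 0 of the 11, against 4.89%. The highest were CREM (0.23) and MRTFA (0.21), of which MRTFA is an SRF coactivator with probe sets down to −1.82.

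EGR1 binds the corepressors NAB1 and NAB2, and NAB2 is itself an EGR1 target. NAB2 read 287 on the array labelled HCT116-CPEB4 and 385 on the array labelled HCT116-GFP (−0.42), and NAB1 read 1882 and 2512 (−0.42, with probe sets up to 0.20). The list of reported EGR1 targets, NAB2 included, lay on both sides. Of 9 kept genes 5 lay above 0 and 4 below, where 49.9% of all genes lay below 0. PDGFA, a growth factor, read 945 and 1661 (−0.81, and −0.85 from its second probe set), while TGFB1 read 174 and 113 (0.62). FGF2 differed by 0.28, with probe sets down to −0.85. PDGFA was the 1 gene of the 9 below the 5th percentile of its brightness class, against 5.32% of all genes. Above the 95th lay 0 of the 9, against 4.89%. The median of the EGR1 targets was 0.10, but averaging the kept probe sets of each gene gave −0.28, and the direction of the list is not settled.

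Among other bZIP proteins that pair with FOS or JUN, 3 of 7 kept genes lay above 0 and 4 below, where 49.9% of all genes lay below 0. BATF2, which is also induced by interferon, read 409 on the array labelled HCT116-CPEB4 and 164 on the array labelled HCT116-GFP (1.32) and was the 1 gene of the 7 higher by 2-fold or more, where 3.55% of all genes were. ATF2 read 2303 and 1683 (0.45, and 0.01 from its second probe set). JDP2, a repressor that dimerises with JUN, read 426 and 625 (−0.56, and −1.33 from its second probe set), and NRL differed by −0.28. The median was −0.10. Here 2 of the 7, BATF2 and ATF2, lay above the 95th percentile of their brightness class, against 4.89% of all genes. Below the 5th lay 1, JDP2, against 5.32%.

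AP-1 target genes had a median of −0.12 (between −0.25 and −0.03 over the alternatives). Of 12 kept genes 8 lay below 0, against 49.9% of all genes. Past 2-fold were 0, a size reached downwards by 3.85% and upwards by 3.55% of all genes. The urokinase gene PLAU read 1447 on the array labelled HCT116-CPEB4 and 1968 on the array labelled HCT116-GFP (−0.44, with probe sets down to −2.08). Its receptor PLAUR read 1939 and 2488 (−0.36, with probe sets from −0.63 to −0.03). CCND1, cyclin D1, differed by 0.21 and SPP1 by 0.18. PLAU was the 1 gene of the 12 below the 5th percentile of its brightness class, against 5.32% of all genes. Above the 95th lay 0 of the 12, against 4.89%. The collagenase and stromelysin genes MMP1, MMP3, MMP10 and MMP13, classical AP-1 targets, were dim on both arrays.

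The RAS, ERK, JNK and p38 cascade had a median of −0.06, with 12 of 17 kept genes below 0, against 49.9% of all genes. Past 2-fold were 0, where 3.85% of all genes were lower and 3.55% higher by that much. The ribosomal S6 kinase RPS6KA2 differed by −0.55 and the JNK gene MAPK8 by −0.46, although its 5 probe sets ran up to 0.68. HRAS (0.37) and the JNK activator MAP2K4 (0.32) were highest. RPS6KA2 was the 1 gene of the 17 below the 5th percentile of its brightness class, against 5.32% of all genes. Above the 95th lay 0 of the 17, against 4.89%. Proteins that bind AU-rich elements, which mark many immediate early mRNAs for decay, had a median of 0.08 over 8 genes. KHSRP lay at 0.43 (probe sets from −0.26 to 0.51) and HNRNPD at 0.28 (probe sets from −0.46 to 0.90). ZFP36 lay at −0.24 and ZFP36L1 at −0.36 (probe sets up to 0.19). Of these 8 genes 1, KHSRP, lay above the 95th percentile of its brightness class, against 4.89% of all genes. Below the 5th lay 1, ZFP36L1, against 5.32%.

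**Figure D4:**
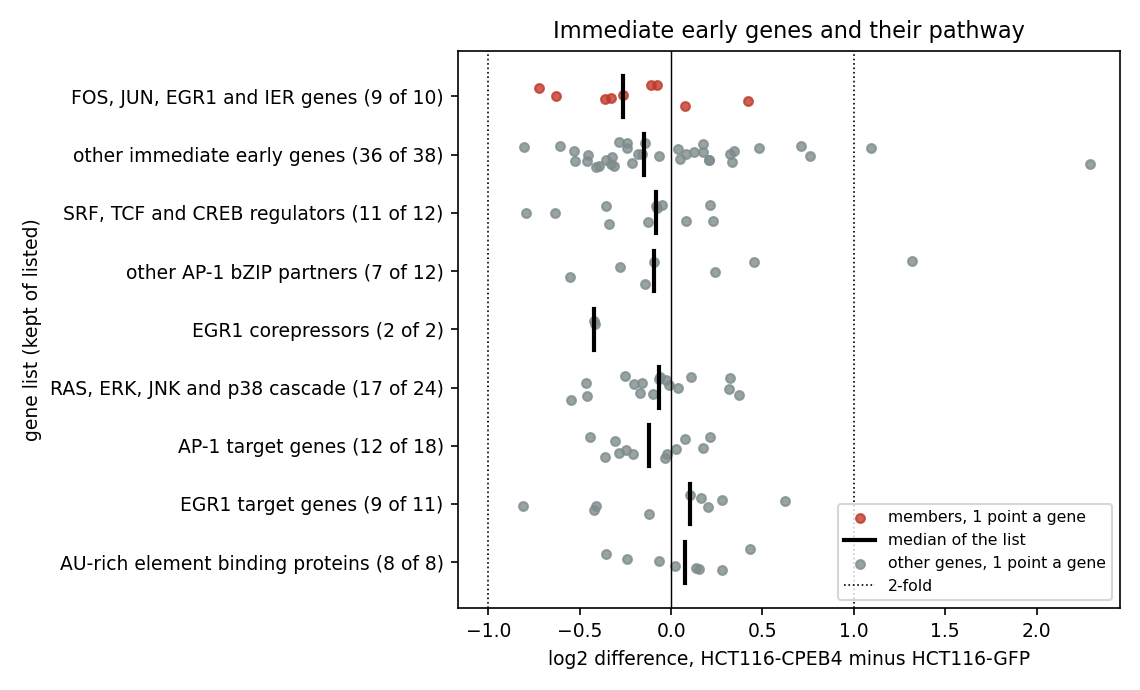
Log2 difference of each kept gene (array labelled HCT116-CPEB4 minus array labelled HCT116-GFP) in the immediate early members and 8 related lists, with each median as a bar and 2-fold as dotted lines; the counts are kept and listed genes. The members run from −0.72 to 0.42 with a median of −0.27.

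The epithelial identity of the cultures was checked with colon markers, of which 10 of 13 were kept, with a median of 0.12. EPCAM read 20717 on the array labelled HCT116-CPEB4 and 20994 on the array labelled HCT116-GFP, KRT20 differed by −0.41 and CDH1 by −0.33, while CDX1 (2.47) and VIL1 (1.26, with −5.60 at its other probe set) passed 2-fold from dim values on the array labelled HCT116-GFP. LGALS4, CEACAM6 and TSPAN8 were dim on both arrays. Markers of other cell types were mostly dim. Kept were 2 of 8 fibroblast markers, COL1A1 (0.45, with probe sets down to −3.05) and DCN (1.23). Also kept were 2 of 8 blood and immune markers, CSF1R (1.38) and CD79A (−0.74), and 2 of 6 endothelial markers, PECAM1 (−0.66) and ERG (−2.50). DCN, CSF1R and ERG passed the dim filter only through the array on which they were higher. Sums were taken over the brightest probe set of every listed marker with one, dim markers included. On the arrays labelled HCT116-CPEB4 and HCT116-GFP the 8 fibroblast markers came to 1595 and 1165 intensity units, of which COL1A1 alone read 1292 and 949. The 6 blood and immune markers with a probe set came to 394 and 419, and the 6 endothelial markers to 151 and 344. The part of these markers in the results was not tested.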

How the data were processed

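The authors' deposited table holds 1 linear intensity per probe set and array. The submitters' processing notes name Partek, with no version. How probes were summarised, background-corrected and scaled is not stated in the labels. Of its value columns, 0 were left unused. Probe sets were named through the platform annotation, with symbols updated by Entrez identifier to RefSeq (GRCh38.p14): 41097 have 1 gene, 1801 several and 11777 none here, and 41043 of the first were found in RefSeq. Manufacturer's controls were left out of gene values.

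Log2 differences were taken without a pseudocount. Each gene took the value of its brightest kept probe set, by mean log2 intensity. The 2-fold rule is one of size, not a test. Python 3.11.15, numpy 2.4.6, pandas 2.3.3, scipy 1.17.1, statsmodels 0.14.6 and matplotlib 3.10.9 were used. The code for gene values was run on simulated arrays with planted shifts larger than any member difference. That run says nothing of differences as small as those of the members. Members and lists were chosen with earlier results of these data known. The text names every member, and of each other list the 2 highest and 2 lowest kept genes and those past 2-fold. Further genes of the lists were named after their values were seen. With 2 arrays a gene has 1 difference, so no genes of like pattern were sought. The alternatives changed the scaling, the dim filter, the choice of probe set and the pseudocount, 9 in all. The depth of an array has no count equivalent, and brightness sets the precision.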

Additional observations from a re-analysis of the deposited data

How the results depend on the processing

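Over 9 alternatives in scaling, dim filter, probe set choice and pseudocount, the median of the members ran from −0.28 to −0.19, and 0 members passed 2-fold in either direction. EGR1 ran from −0.73 to −0.64, FOS from −0.65 to −0.60, IER2 from −0.37 to −0.33, IER3 from −0.28 to −0.21 and JUNB from 0.39 to 0.42, wherever they could be computed. Without _x_at and _s_at probe sets EGR1, JUND and IER3 have no value, 4 of the 6 remaining members lay below 0, and JUN was −0.62. Under the stricter filter FOS has no value. With the mean of kept probe sets JUND was 0.11. With a pseudocount of 16 the dim FOSL2 probe sets were 0.69 and 0.94, and the faintest JUND one 0.82.

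The EGR1 target median was −0.28 with the mean of probe sets and −0.31 without _x_at and _s_at probe sets. Without those probe sets the median of the AP-1 partners was 0.24. The median of the SRF, TCF and CREB regulators was −0.34 with the mean of probe sets. Medians near 0 also changed sign for the JUN family, the RAS cascade, the AU-rich element binding proteins and the colon markers. The sparse lists moved most: fibroblast markers to 0.47 with no dim filter, 0.45 with the stricter one, 0.21 with the mean of probe sets and 1.5 without _x_at and _s_at probe sets; blood and immune markers to 0.95 with no filter and −0.74 with the filter on the mean; and endothelial markers to −2.20 and −0.66 with those same filters and −1.07 with the pseudocount. Genes past 2-fold upwards and downwards numbered 487 and 527 in the main setting, 40 and 14 under the stricter filter, 163 and 156 with the filter on the mean, and 1761 and 1875 with no filter. With no replicates, the spread between cultures is unknown, and 0.27, the median gap between probe sets of a gene, served only as the tolerance for calling a value moved. No paired analysis was possible because each group has 1 array. Dim probe sets limit FOSB and the fainter FOSL2 and JUND values.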
